A study of Mus musculus with 6 samples.

Results

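The LSD1-CoREST corepressor complex is described here by 9 genes, matched by symbol to the deposited gene count table: Kdm1a, Rcor1, Rcor2, Rcor3, Hdac1, Hdac2, Rest, Phf21a and Hmg20b. All 9 were among the 48795 Ensembl genes of the table, and all 9 had enough reads to be among the 16861 genes tested. Polyadenylated RNA came from the mouse hippocampus, with 3 wild-type libraries (WT, genotype WT) and 3 double knockout libraries (KO, labelled ifKO). By the design text, KO mice carried the floxed alleles Kdm1af/f and Kdm5cf/f with CamKIIα-CreERT2, a tamoxifen-dependent recombinase limited by its promoter to principal neurons of the forebrain. Both groups received tamoxifen (TMX), were on a C57BL/6J background, and were 2 to 3 months old when it was given. The labels do not say whether WT mice carried the recombinase or floxed alleles. They also do not tie each library to its own animal, and the spread behind every p-value is that between libraries, which may be technical. No group lacked only 1 of the demethylases, and the part of each cannot be told apart.

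KDM1A, also called LSD1, is a flavin-dependent demethylase that removes mono- and dimethyl marks from lysine 4 of histone H3, a mark of active promoters and enhancers. It acts on nucleosomes only when held by a CoREST scaffold (RCOR1, RCOR2 or RCOR3), which also binds the deacetylases HDAC1 or HDAC2. Transcription factors bring the complex to DNA, the best known being REST, a zinc finger repressor that silences neuronal genes outside neurons and is itself kept low in mature neurons. PHF21A (BHC80) reads the unmethylated tail of histone H3, and HMG20B (BRAF35) is a DNA-bending HMG-box protein.

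After induced loss of KDM1A and KDM5C, 3 of the 9 genes rose, Rest, Rcor2 and Hdac1, and 1 fell, the targeted Kdm1a. The remaining 5, Rcor1, Rcor3, Hdac2, Phf21a and Hmg20b, did not pass the test. A gene is said to have risen or fallen where its Benjamini-Hochberg adjusted p, over all 16861 genes, was under 0.05 by the edgeR quasi-likelihood test. By that rule 5.90% of all tested genes rose and 1.05% fell, 6.95% in either direction, against 4 of the 9 members. The 4 include Kdm1a, targeted by design, and the members were chosen with earlier results of these data known. Among the 3710 genes with a WT mean of 5 to 20 counts per 1000000 library counts (CPM), the range that holds Rest, Hdac1 and Rcor2, 8.52% rose, a range chosen after the values were seen. The median log2 fold change (KO over WT) was 0.12 over the 9 genes and -0.01 over all tested genes. Library totals were 19309576 to 19700249 counts, so even Rest, the member with the fewest reads, was counted at least 105 times in each library.

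Kdm1a is shown first because its loss checks the labels, and its exons 5 and 6 are printed because the design text places the deletion there and whole-gene counts cannot separate them from the rest of the transcript. Which transcript that numbering follows is not given in the sources used here. Numbered as in the GENCODE transcript of 19 exons (GRCm38, minus strand, 3008 bases), a choice made here, these lie at chr4:136573073-136573165 and chr4:136572218-136572324, both wholly coding. Exon 6 holds, in capitals, the codons for glycine-any-glycine-any-any-glycine (GGNNNNGGNNNNNNNGGN, in frame at codons 286 to 291 of 853), the loop by which flavoenzymes of this fold grip the cofactor FAD. That pattern occurred 2 times in frame in the whole coding sequence. In the GENCODE transcript of 20 exons, which holds an additional exon of 60 bases, exons 5 and 6 would instead be chr4:136574025-136574103 and chr4:136573073-136573165, and the exon with the loop would be exon 7, outside the deletion.
Kdm1a exon 5: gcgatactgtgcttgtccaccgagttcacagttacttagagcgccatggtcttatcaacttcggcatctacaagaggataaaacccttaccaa
Kdm1a exon 6: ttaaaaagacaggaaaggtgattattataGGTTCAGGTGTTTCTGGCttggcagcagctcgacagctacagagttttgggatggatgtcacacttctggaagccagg

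By the numbering of 19 exons, exons 5 and 6 together measure 200 bases, 6.65% of the transcript, which is not a whole number of codons. If exon 4 is joined to exon 7 in that transcript, the reading frame meets a stop after 261 codons, within exon 7 (chr4:136570458-136570539), shown with the stop in capitals.
Kdm1a exon 7: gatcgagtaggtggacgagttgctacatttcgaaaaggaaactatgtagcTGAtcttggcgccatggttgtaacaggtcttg
The reading frame was computed from the annotated transcript and not observed in these counts, and it holds only for that numbering.

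Kdm1a (ENSMUSG00000036940, chr4:136550540-136602723) measured 75.2, 76.6 and 69.2 CPM in the WT libraries and 38.0, 37.6 and 40.0 CPM in the KO libraries. Every KO library lay far below every WT library, and the KO values sat close to each other. Over the whole table, too, pairs of KO libraries differed less than pairs of WT libraries (chi-square per gene 3.44 to 4.22 against 6.41 to 9.97). Groups with KO below WT and no overlap occurred in 11.2% of all tested genes. The log2 fold change was -0.93 (SE 0.0651, adjusted p = 4.32e-07, edgeR quasi-likelihood test), and the rank of its p among all tested genes was 56. In bulk tissue, fewer cells of a type and less RNA per cell cannot be told apart, and glia and interneurons, which do not use the CamKIIα promoter, share these libraries. Kdm5c, the other targeted gene, measured 77.2 to 82.85 CPM in WT and 65.3 to 74.3 CPM in KO, a difference of -11.2% (interval -19.3 to -2.29%) that missed the threshold (adjusted p = 0.143, edgeR quasi-likelihood test).

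**Figure D1:**
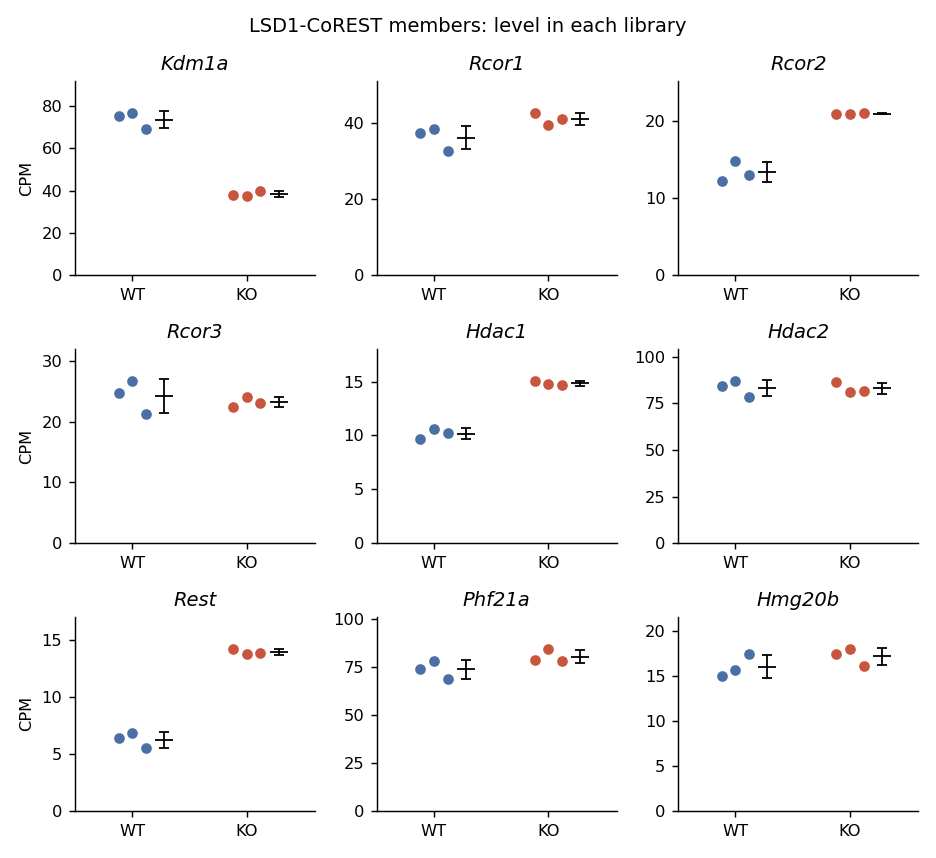
Level of each of the 9 genes in CPM (vertical axes start at 0) in the 3 WT (blue) and 3 KO (red) libraries, with the mean and SD beside the points. Rest, Rcor2 and Hdac1 sit higher in every KO library and Kdm1a lower, while the groups of Rcor3, Hdac2, Phf21a and Hmg20b overlap. Rcor1 also sits higher in every KO library, by a small margin, and did not pass the test.

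Among the scaffolds, Rcor2 rose and the others did not pass. RCOR2 is the CoREST paralog best known from neural progenitors and embryonic stem cells. Rcor2 (ENSMUSG00000024968, chr19:7267325-7275225) measured 12.2, 14.8 and 13.1 CPM in WT and 20.95, 20.97 and 21.0 CPM in KO. The KO libraries were nearly identical and all stood above WT, a rise of 57.0% (95% interval 36.7 to 80.4%). Its log2 fold change was 0.65 (SE 0.0929, adjusted p = 4.21e-04, edgeR quasi-likelihood test).

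Rcor1 (ENSMUSG00000037896, chr12:111039351-111115901) encodes CoREST itself, the founding scaffold. It measured 37.6, 38.45 and 32.7 CPM in WT and 42.6, 39.5 and 41.2 CPM in KO. The KO values were all above the WT values by a small margin, a separation seen with KO on top in 14.0% of all tested genes, and the difference of 13.5% (interval 1.24 to 27.2%) did not pass (adjusted p = 0.195, edgeR quasi-likelihood test). Rcor3 (ENSMUSG00000037395, chr1:192098546-192138062), a paralog that can weaken nucleosome demethylation by LSD1, measured 24.7, 26.7 and 21.2 CPM in WT and 22.4, 24.1 and 23.1 CPM in KO. Its groups overlapped, and the interval of the difference, -16.6 to 9.95%, holds no change and excludes a change as large as that of Rcor2. On the opposite strand the antisense genes Gm26879 and Gm10516 and the unclassified Gm37055 share 667, 336 and 133 of its 13622 exon bases. The strand setting of the counting is not given, so how reads in these shared bases were counted is not known.

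Of the deacetylases, Hdac1 rose while Hdac2, by far the more abundant, did not pass. Both enzymes remove acetyl groups from histone tails and can replace each other in the complex. Hdac1 (ENSMUSG00000028800, chr4:129516104-129542713, minus strand) measured 9.63, 10.6 and 10.25 CPM in WT and 15.0, 14.8 and 14.7 CPM in KO. All KO libraries stood above all WT libraries, and the log2 fold change was 0.55 (SE 0.0942, adjusted p = 0.00212, edgeR quasi-likelihood test), a rise of 45.9%. Hdac2 (ENSMUSG00000019777, chr10:36974544-37001889) measured 84.2, 86.9 and 78.3 CPM in WT and 86.6, 81.0 and 81.4 CPM in KO. The interval of its difference ran from -8.91 to 9.42% (adjusted p = 0.987, edgeR quasi-likelihood test), so a change as large as that of Hdac1 lies outside it.

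A near-identical copy and a close neighbour bear on the Hdac1 count. Of the 3536 distinct words of 50 bases in its transcripts, 31.7% also occur in the processed pseudogene Gm10093 on chromosome 17. Gm10093 measured 3.36, 4.75 and 3.54 CPM in WT and 4.03, 6.03 and 4.77 CPM in KO, with overlapping groups (adjusted p = 0.332, edgeR quasi-likelihood test). The sum of Hdac1 and Gm10093 was 13 to 15.4 CPM in WT and 19.1 to 20.8 CPM in KO. The groups of this sum did not overlap, and it was 1.41-fold higher in KO. Reads that align to both genes may be absent from both counts, which was not tested. The processed pseudogenes AC125456.1 (4.84% of the words) and Gm4864 (4.41%) were not added to the sum. The last exon of Hdac1 also ends 119 bases from the end of Marcksl1 on the opposite strand, a gene for an actin-binding relative of the MARCKS protein. Marcksl1 rose from 59.6, 50.2 and 49.96 CPM to 97.6, 122 and 101 CPM (log2 fold change 1.00, SE 0.0906, adjusted p = 5.71e-06, edgeR quasi-likelihood test). Whether reads from this neighbour enter the Hdac1 count was not tested.

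Rest showed the largest rise of the 9 genes. Rest (ENSMUSG00000029249, chr5:77265491-77286432) measured 6.42, 6.84 and 5.465 CPM in WT and 14.2, 13.8 and 13.8 CPM in KO. The lowest KO library stood far above the highest WT library, and the 3 KO libraries were close together. The fold was 2.23 (95% interval 1.88 to 2.63), a log2 fold change of 1.15 (SE 0.113, adjusted p = 1.17e-05, edgeR quasi-likelihood test). By size of rise Rest ranked 320 of 16861 tested genes, Rcor2 863 and Hdac1 1111.

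The remaining chromatin-binding subunits did not pass the test. Phf21a (ENSMUSG00000058318, chr2:92093117-92364666) measured 74.2, 78.6 and 69.0 CPM in WT and 78.9, 84.6 and 78.2 CPM in KO, with an interval of -0.991 to 19.9% (adjusted p = 0.308, edgeR quasi-likelihood test). Hmg20b (ENSMUSG00000020232, chr10:81346048-81350480) measured 15.0, 15.7 and 17.5 CPM in WT and 17.4, 18.03 and 16.2 CPM in KO, with an interval of -6.73 to 23.4% (adjusted p = 0.598, edgeR quasi-likelihood test). In both genes the groups overlapped. Over the 9 genes 5 had groups that did not overlap, the targeted Kdm1a among them, against 25.2% of all tested genes.

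**Figure D2:**
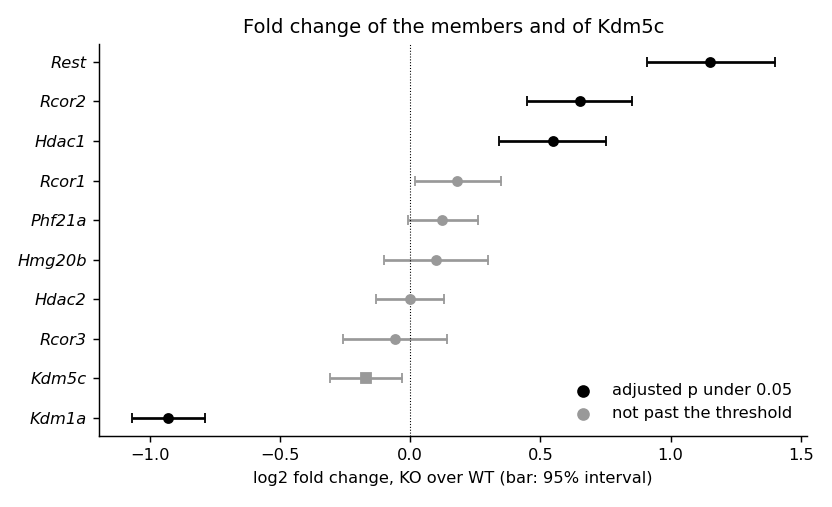
Log2 fold change of KO over WT (horizontal axis) with its 95% interval for the 9 genes (circles) and Kdm5c (square), black where the adjusted p was under 0.05. Rest stands at 1.15, Rcor2 at 0.65 and Hdac1 at 0.55, and Kdm1a at -0.93.

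Levels of different genes were compared as CPM per kilobase (kb) of annotated exon. In WT the order was Hdac2 (18.6 ± 0.976 CPM per kb, mean ± SD, n = 3), Kdm1a (14.2 ± 0.763), Phf21a (8.63 ± 0.562), Rcor1 (6.37 ± 0.546), Hmg20b (5.1 ± 0.41), Rcor2 (4.23 ± 0.412), Hdac1 (2.95 ± 0.143), Rcor3 (1.78 ± 0.203) and Rest (0.865 ± 0.0978). No neighbours in this order overlapped between libraries. The 3 genes that rose were thus among the 4 of lowest level per kb of exon in WT. In KO, Phf21a (9.41 ± 0.409 CPM per kb) stood above Kdm1a (7.44 ± 0.248), Kdm1a overlapped Rcor1 (7.23 ± 0.273), and Rest (1.93 ± 0.0318) stood above Rcor3 (1.7 ± 0.0603).

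The length used matters most for Rcor3, whose annotated exons total 13622 bases against 3791 for its longest coding transcript. Per kb of longest coding transcript, a choice added after the data were seen, Rcor3 measured 6.39 ± 0.729 CPM per kb in WT and overlapped Rcor1 (6.37 ± 0.546). On that scale Hdac2 (25.6 ± 1.34) overlapped Kdm1a (24.3 ± 1.3), Hdac1 (4.99 ± 0.241) overlapped Rcor2 (4.73 ± 0.461), and Rest (0.891 ± 0.101) was again lowest. Rest, Rcor2 and Hdac1 were then the 3 lowest members in WT.

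**Figure D3:**
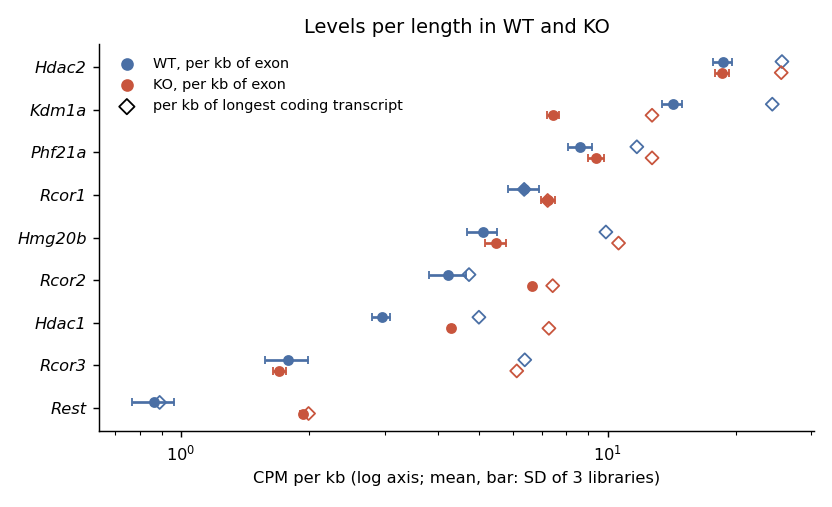
Level of each gene in WT (blue) and KO (red) on a log axis, as CPM per kb of exon (filled, mean with SD of 3 libraries) and per kb of longest coding transcript (open diamonds, mean). Hdac2 is highest and Rest lowest in WT on both scales, and Rcor3 moves most between them.

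Because paralogs fill the same place in the complex, their proportions were read within each library, where scaling between libraries plays no part. Rcor2 made up 31.5, 34.9 and 36.1% of the summed Rcor level (CPM per kb of exon) in WT and 42.1, 43.2 and 42.7% in KO. The share of Rcor1 was 51.5 ± 1.96% in WT and 46.4 ± 1.13% in KO (SD, n = 3 each), and that of Rcor3 was 14.3 ± 0.621% and 10.9 ± 0.535%. Per kb of longest coding transcript the share of Rcor2 was 27.1 ± 2.1% and 35.8 ± 0.118%, and that of Rcor1 overlapped between the groups. Hdac1 made up 12.9, 13.7 and 14.5% of the summed Hdac1 and Hdac2 level in WT and 18.4, 19.2 and 19.0% in KO.

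The Rcor2 to Rcor1 ratio was 0.666 ± 0.0704 in WT and 0.919 ± 0.0351 in KO (SD, n = 3 each). The Hdac1 to Hdac2 ratio was 0.159 ± 0.0107 and 0.232 ± 0.00598, and the Rcor3 to Rcor1 ratio was 0.278 ± 0.00989 and 0.236 ± 0.0173. In all 3 ratios the groups did not overlap. Of all tested single genes 25.2% had groups without overlap, and the share for ratios was not counted. Both Rcor ratios share Rcor1 as denominator, and the numerators Rcor2 and Hdac1 had risen by themselves. The 3 ratios are thus not independent of each other or of those calls. The two-sided exact permutation test gave p = 0.1 for each ratio, adjusted p = 0.1 over the 3 ratios. That is the smallest value that 3 against 3 libraries can give. The ratio of Kdm1a to the summed Rcor level was 1.15 ± 0.0416 in WT and 0.478 ± 0.0158 in KO, all per kb of exon.

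**Figure D4:**
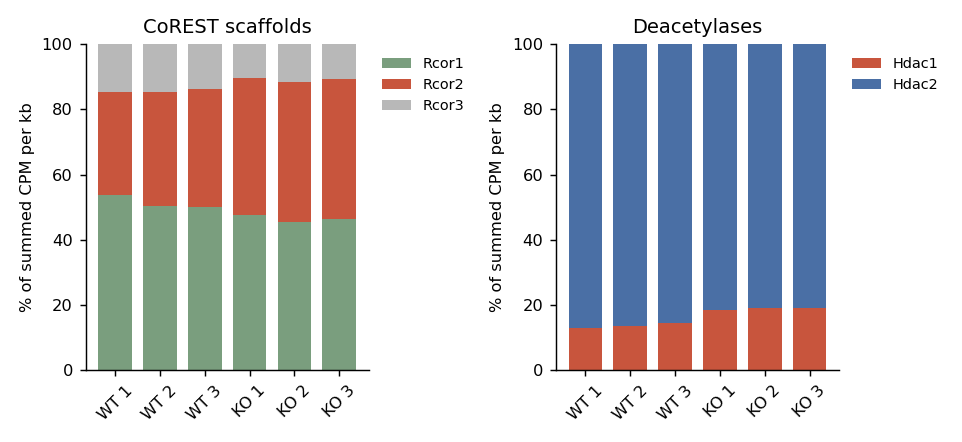
Share of each paralog in the summed CPM per kb of exon of its family (vertical axis, percent) in each library, for the CoREST scaffolds and for the deacetylases. Rcor2 takes 31.5 to 36.1% in WT and 42.1 to 43.2% in KO, and Hdac1 12.9 to 14.5% and 18.4 to 19.2%.

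Beyond the 9 genes, 26 other partners and recruiters of LSD1 were listed: paralogs of its subunits, CtBP and zinc finger partners, and factors of the Snail, Scratch, GFI1 and INSM families that bind LSD1 through a SNAG domain. Of these 21 were tested, with a median log2 fold change of 0.06. Among the 21, 3 rose and 0 fell, beside 5.90% and 1.05% of all tested genes. The 3 rises include Insm2, described below. At an unadjusted edgeR p under 0.05, 5 were higher and 1 was lower. Over all tested genes 12.6% were higher and 7.66% lower at that level, 20.2% in all. DESeq2 and limma-voom also called 0 falls, with 4 and 3 rises. Phf21b, the paralog of Phf21a, rose from 9.58, 12.5 and 9.73 CPM to 15.0, 19.4 and 17.0 CPM (log2 fold change 0.69, SE 0.126, adjusted p = 0.00305, edgeR quasi-likelihood test). Insm2, a SNAG-domain factor of endocrine and neuronal cells, had 1, 1 and 2 reads in WT and 25, 25 and 26 in KO (adjusted p = 2.33e-05, edgeR quasi-likelihood test), and it passed the filter on low counts only through KO. The 5 untested genes were Gfi1, Gfi1b, Snai1, Snai3 and Ovol1.

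Zeb1, a zinc finger repressor that recruits CtBP and LSD1, rose by a smaller step, from 86.9, 87.3 and 82.0 CPM to 107, 103 and 94.3 CPM (adjusted p = 0.0302, edgeR quasi-likelihood test). It lost its call without KO replicate 1, KO replicate 2, WT replicate 1 or WT replicate 3 (adjusted p = 0.153, 0.129, 0.0637 and 0.0644, edgeR quasi-likelihood test), with log2 fold changes of 0.21, 0.24, 0.26 and 0.22 against 0.25 with all libraries. Kdm1b, the other flavin-dependent histone demethylase, stood at 13 and 11.3 CPM, with a difference of -13.1% (interval -24.4 to -0.0435%) that did not pass (adjusted p = 0.246, edgeR quasi-likelihood test). Kdm1b is named after its values were seen.

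Other REST cofactors and regulators were read next, among them SIN3, the G9a methyltransferases and small phosphatases of the CTDSP family. They showed 0 rises and 0 falls among 20 tested genes, with a median of 0.01. Over all tested genes 5.90% rose and 1.05% fell. At an unadjusted edgeR p under 0.05, 1 of the 20 was higher and 0 were lower, against 12.6% and 7.66% of all tested genes. DESeq2 and limma-voom called 0 of the 20. The 2 with the smallest p were Ctdsp1, a phosphatase that acts with REST (12.6 ± 0.623 CPM in WT and 14.7 ± 0.453 in KO, adjusted p = 0.185, edgeR quasi-likelihood test), and Cdyl, a chromodomain corepressor (6.24 ± 0.643 and 7.47 ± 0.147 CPM, adjusted p = 0.267, edgeR quasi-likelihood test). Subunits of the other class I deacetylase complexes (NuRD, SIN3, MiDAC, NCoR), of which 33 of 34 listed names matched, likewise gave 0 rises and 0 falls among 33 tested, with a median of -0.01 and fold changes between -0.19 and 0.19. At an unadjusted edgeR p under 0.05, 2 of the 33 were higher and 2 lower, beside the same shares of all tested genes. DESeq2 and limma-voom called 0 of the 33. Smallest in p were Brms1l (74.3 ± 2.57 to 65.6 ± 0.959 CPM, adjusted p = 0.086, and 0.0418 without WT replicate 3, edgeR quasi-likelihood test) and Tbl1x (63.6 ± 1.83 to 71.9 ± 3.82 CPM, adjusted p = 0.116, edgeR quasi-likelihood test).

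Genes known to carry REST binding sites, mostly genes of the synapse, ion channels and secretory granules, were then read as a group. Of 56 listed, 52 were tested, of which 2 rose and 4 fell, beside 5.90% and 1.05% of all tested genes. Log2 fold changes of the 52 had a median of -0.08, and the whole set of tested genes had one of -0.01. Of the 52, 16 lay above 0, a share that was not counted over all tested genes. At an unadjusted edgeR p under 0.05, 5 were higher and 11 lower, against 12.6% and 7.66% of all tested genes. Unc13a, a vesicle priming factor, fell from 547, 620 and 569 CPM to 464, 479 and 456 CPM (log2 fold change -0.31, SE 0.0578, adjusted p = 0.00361, edgeR quasi-likelihood test). Snap25, a membrane fusion protein of the synapse, fell from 2096, 2357 and 2019 CPM to 1831, 1807 and 1894 CPM (adjusted p = 0.0279, edgeR quasi-likelihood test). Sez6, a dendritic membrane protein (256 ± 1.83 to 295 ± 4.33 CPM, adjusted p = 0.033, edgeR quasi-likelihood test), and Cacna1h, a T-type calcium channel (219 ± 22.3 to 265 ± 18.9 CPM, adjusted p = 0.0439, edgeR quasi-likelihood test), rose. The other falls were Chgb and Rab3c, of the secretory granule and the synaptic vesicle, named after their values were seen.

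Of the 4 REST targets named by rule, the call of Unc13a held in each of 15 alternatives, while each of the other 3 lost its call on leaving out any of 4 libraries, at folds of the same sign. The 2 rises were 0 without KO replicate 2, KO replicate 3 or WT replicate 1, and 1 without KO replicate 1 or WT replicate 3. The 4 falls were 1 without KO replicate 2, KO replicate 3 or WT replicate 1, and 2 without KO replicate 1. Snap25 lost its call without KO replicates 1, 2 or 3 or WT replicate 1 (adjusted p = 0.0889, 0.11, 0.0996 and 0.052, edgeR quasi-likelihood test), at log2 fold changes of -0.22, -0.21, -0.24 and -0.25 against -0.23 with all libraries. Sez6 lost its call without the same libraries (adjusted p = 0.125, 0.144, 0.111 and 0.072, edgeR quasi-likelihood test), at 0.20, 0.19, 0.21 and 0.21 against 0.20. Cacna1h lost its call without KO replicates 2 or 3 or WT replicates 1 or 3 (adjusted p = 0.202, 0.143, 0.16 and 0.068, edgeR quasi-likelihood test), at 0.23, 0.28, 0.21 and 0.26 against 0.28. Over the whole table, 48 to 102 genes fell without 1 KO library, against 177 with all libraries.

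**Figure D5:**
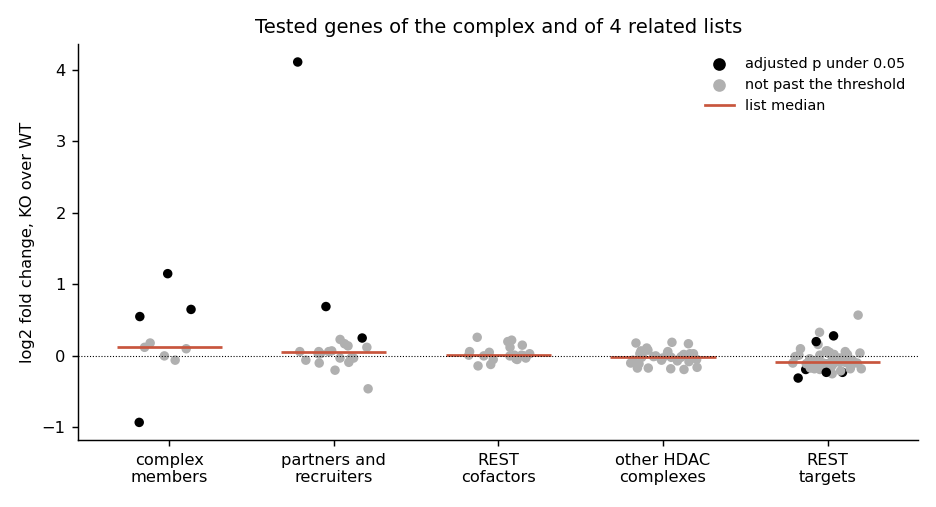
Log2 fold change (KO over WT) of each tested gene of the complex and of the 4 related lists, black where the adjusted p was under 0.05, with the list median in red. The point at 4.11 is Insm2. The REST cofactors and regulators and the other deacetylase complexes lie between -0.19 and 0.26 with no black point.

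Summed markers of astrocytes and oligodendrocytes did not overlap between the groups and were higher in KO. So were those of choroid plexus and ependyma and of neighbouring brain regions, given in the next paragraph. These values stand beside the rises of Rest, Rcor2 and Hdac1. The summed level of 12 astrocyte markers was 6075 to 6416 CPM in WT and 6757 to 6855 CPM in KO, and 1 of the 12, Gfap, rose. The sum of 10 oligodendrocyte markers was 5177 to 5622 and 5765 to 6472 CPM, with 1 rise, Mbp. The sums of 12 microglial markers (463 to 546 and 541 to 615 CPM, 0 rises), 8 precursor markers (328 to 366 and 360 to 397 CPM, 1 rise), 12 vascular markers (452 to 464 and 463 to 542 CPM, 1 rise) and 13 markers, 12 of them tested, of immature neurons and progenitors (223 to 247 and 237 to 253 CPM, 1 rise) overlapped between the groups. In these 6 lists 0 markers fell and 0 were without a read, and DESeq2 and limma-voom also called 0 falls there and 0 microglial rises. At an unadjusted edgeR p under 0.05, 8 of 10 oligodendrocyte, 7 of 12 microglial, 4 of 12 astrocyte and 3 of 8 precursor markers were higher. So were 1 of 12 vascular and 2 of 12 immature neuron and progenitor markers, against 12.6% of all tested genes. At that level 1 precursor marker was lower. By adjusted p 5.90% of all tested genes rose and 1.05% fell. DESeq2 called 2 oligodendrocyte rises. The part of these cells in the rises was not tested.

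Markers of hippocampal principal neurons were present and summed to 7110 to 7552 CPM in WT and 6737 to 7430 CPM in KO, with 3 rises and 2 falls among 16. At an unadjusted edgeR p under 0.05, 4 of these were higher and 2 lower. Interneuron markers summed to 1166 to 1214 and 1134 to 1206 CPM, with 0 calls among 11 by edgeR, DESeq2 or limma-voom and 2 lower at an unadjusted edgeR p under 0.05. Markers of choroid plexus and ependyma summed to 43.1 to 65.2 and 81.1 to 141 CPM, with 1 rise among 9 tested. Those of neighbouring brain regions summed to 178 to 187 and 204 to 210 CPM, with 2 rises among 11. Both sums were higher in KO without overlap. Their part in the rises of Rest, Rcor2 and Hdac1 was not tested. At the unadjusted level 2 of 9 and 3 of 11 were higher and 0 lower. Over all tested genes 5.90% rose and 1.05% fell, and 12.6% were higher and 7.66% lower at the unadjusted level.

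Within 100000 bases of the 9 genes lay 54 tested genes, of which 4 rose and 0 fell, against 5.90% and 1.05% of all tested genes. At an unadjusted edgeR p under 0.05, 6 were higher and 4 lower, against 12.6% and 7.66% of all tested genes. DESeq2 and limma-voom each called 3 rises and 0 falls among the 54. Around Rest, 0 of 3 tested neighbours passed by edgeR, DESeq2 or limma-voom, and 1, Igfbp7, was higher at an unadjusted edgeR p under 0.05. Igfbp7 stood at 11.6 CPM in WT against 14 CPM in KO, Noa1 at 18 against 16.3 CPM, and Polr2b at 75.2 against 71.4 CPM. Around Rcor2, 0 of 6 passed by those tools, with 1 lower at an unadjusted edgeR p under 0.05, and Mark2, 171 bases away, stood at 119 CPM in WT against 121 CPM in KO. Besides Marcksl1 next to Hdac1, the edgeR rises were Creb3l1 near Phf21a (3.11 to 6.23 CPM) and Gipc3 and Tjp3 near Hmg20b. Gipc3 went from 0.603 to 1.36 CPM and Tjp3 from 0.984 to 2.60 CPM. Phf21a and Hmg20b did not pass themselves. Near Hmg20b, DESeq2 and limma-voom each called 1 rise, against 2 by edgeR. All named neighbours were chosen after their values were seen.

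For each member that passed, the 3 protein-coding genes with the most similar profile were found among 13708, by the root mean square distance of log2 CPM, each gene set relative to its own WT mean, over the 6 libraries. Rest was nearest to Wtip, at 7.18 CPM in WT against 15.7 CPM in KO (distance 0.0724), followed by Ackr2 (0.0724) and Wdr95 (0.0911). Rcor2 was nearest to Zfp772 (0.0447), Trim25 (0.057) and 2700081O15Rik (0.0584), and Hdac1 to Shroom1 (0.0347), Matn4 (0.0375) and Celf6 (0.0449). Kdm1a had no gene as close, the nearest being Morc2b (0.148), Zfp984 (0.164) and Cort (0.186). None of the 12 was a member of the complex or of the related lists.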

How the data were processed

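Each library's values were raw, whole-number read counts per Ensembl gene, as deposited by the authors. Trimming used cutadapt 1.18, alignment HISAT2 on GRCm38 (mm10) and counting HTSeq 0.11.1, per the submitters' processing notes. For the annotation release and the strand setting, the answer is not given in the sources used here. Identifiers were matched to GENCODE M21 (360 unmatched, 0.0512% of counts).

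The whole table was filtered with filterByExpr (minimum count 10, minimum total 15), scaled with TMM and tested with edgeR 4.0.16 (quasi-likelihood, group as the only term) at a Benjamini-Hochberg adjusted p of 0.05. SEs are the absolute log2 fold change over the root of F. The procedure was tested on simulated data. Alternatives comprised DESeq2 1.42.0, limma-voom 3.58.1, scaling by RLE or library size alone, other filters, a replicate block, each library left out, and thresholds of 0.01 and 0.1.

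The members and lists were chosen with earlier results of these data known. All members and Kdm5c were named. From each related list the text names at most 4 genes past the threshold, by smallest adjusted p, or 2 by smallest p where none passed. Marker genes past the threshold could be named, and for each member past the threshold the 3 nearest protein-coding genes with a mean of at least 1 CPM.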

Additional observations from a re-analysis of the deposited data

How the results depend on the processing

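All 9 members kept their side of the threshold in each of 15 alternatives, and all but the uncalled Rcor3 and Hdac2 kept their direction. The alternatives gave log2 fold changes of -0.98 to -0.91 for Kdm1a, 1.07 to 1.22 for Rest, 0.59 to 0.73 for Rcor2 and 0.51 to 0.58 for Hdac1, and over all alternatives the largest adjusted p of these 4 was 0.0132 (Hdac1 without WT replicate 1, edgeR quasi-likelihood test). Falls among REST targets numbered 2 with library size alone or at least 1 CPM in 3 libraries, 1 at a threshold of 0.01 and 7 at 0.1, and 1 to 6 on leaving out 1 library. Their rises numbered 1 with a replicate block, 0 at a threshold of 0.01, and 0 to 2 on leaving out 1 library. Falls in the other deacetylase complexes numbered 1 at a threshold of 0.1 and 0 to 2 on leaving out 1 library. Paralog ratios kept their direction in all 8 alternatives each.

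Same-numbered libraries did not deviate together (correlations of 0.00465, -0.00921 and -0.024), and the labels give no shared litter, batch or day, so the numbers were not taken to pair them. No library correlated best with the one of its own number. With a replicate block 960 genes rose and 149 fell in place of 995 and 177, and Rest, Rcor2, Hdac1 and Kdm1a kept their calls, while Sez6 lost its call at the same log2 fold change of 0.20 (adjusted p = 0.0636, edgeR quasi-likelihood test). With 3 libraries per group the intervals of the 5 uncalled members still reach -16.6% (Rcor3) and 27.2% (Rcor1).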
